A study of Drosophila melanogaster with 18 samples.

Results

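The cytoplasmic ribosomal protein genes of Drosophila melanogaster were the rows whose gene name begins with RpL, RpS or RpLP followed by a digit. This rule, which uses names and no measured value, found 92 of the 16680 genes in the deposited table. Of these, 54 encode proteins of the large subunit or its relatives and 38 proteins of the small subunit or its relatives. The filter on low counts kept 85 of the 92 (51 large, 34 small) among 8467 genes tested. Genes of mitochondrial ribosomal proteins, whose names begin with mRp, are not in this family. The core protein sta, of the small subunit, has another kind of name and is also outside it.

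RNA-seq was carried out on whole, hand-staged embryos in 6 groups of 3 libraries: E(z)-KD, CBP-KD and WT at nuclear cycle 14, and E(z)-KD, CBP-KD and WT before nuclear cycle 9. E(z) encodes the methyltransferase of histone H3 lysine 27, and nej encodes CBP, which acetylates the same residue. Knockdown embryos came from mothers in which a maternal germline GAL4 driver (matα4-GAL-VP16) expressed a short hairpin against E(z) (a TRiP line) or nej (a line made by the laboratory), and WT embryos were the controls, all kept at 25 °C. Library names give a single stock code for WT and a cross for each knockdown, so driver, hairpin insertion and strain background cannot be told apart from the loss of the targeted RNA. The hairpins act in the mother, and few knockdown embryos develop as far as cycle 14, so the cycle 14 knockdown libraries describe the embryos that did. The study describes the replicates as biological, and the labels do not say whether they came from separate crosses or days. The labels name the molecule as nuclear RNA, whereas the study calls the libraries total RNA-seq.

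A ribosome is built from ribosomal RNA and a copy of nearly every ribosomal protein, and the stalk proteins P1 and P2 are the exception, being present in several copies. The fly egg is loaded by the mother with ribosomes and with the messenger RNA of their proteins, and these messages belong to the long-lived maternal RNAs whose translation follows nutrient and growth signals. In flies, loss of a single copy of many of these genes gives the Minute phenotype of slow growth and thin bristles. Before cycle 9 nearly all RNA in the embryo is maternal, and at cycle 14 the zygotic genome is broadly transcribed.

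Totals ranged between 6243485 and 18262562 counts, with the smallest in WT cycle 14 replicate 1, and 3 counts correspond to 0.164 to 0.481 CPM (counts scaled to a fixed library total with TMM factors). At cycle 14 E(z) had 3.51 to 5.45 CPM in E(z)-KD and 7.26 to 14.9 CPM in CBP-KD, against 31.9 to 34.6 CPM in WT, so that its RNA lay below WT in both knockdowns. Before cycle 9 it had at most 0.269 CPM in E(z)-KD and 87.3 to 96.6 CPM in CBP-KD, against at least 97.9 CPM in WT. The nej RNA had 1518 to 1946 CPM in E(z)-KD and 528 to 657 CPM in CBP-KD, against 1495 to 2216 CPM in WT at cycle 14. Before cycle 9 it had 1065 to 1157 CPM in E(z)-KD and 231 to 293 CPM in CBP-KD, against 1071 to 1181 CPM in WT. At cycle 14, 6 maternal RNAs summed to 4093–4556 CPM in E(z)-KD and 4092–4904 CPM in CBP-KD, against 1554–2038 CPM in WT. There, 10 early zygotic genes summed to 5745–6937 CPM in E(z)-KD and 2778–4019 CPM in CBP-KD, against 7488–9211 CPM in WT. These marker levels moved with genotype at cycle 14, and their part in the results on ribosomal protein genes at that stage was not tested. RNA of 12 eggshell genes summed to at most 2.05 CPM and of 4 fat body and adult genes to at most 1.32 CPM.

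The question of the first comparison was how the messages of the ribosomal proteins changed over the maternal-to-zygotic transition in WT embryos. All 85 genes tested were higher at cycle 14 than before cycle 9, and none was lower, where 45.6% of all genes tested were higher and 41.4% lower. Their median log2 fold change was 0.76, beside 0.13 for all genes tested, and single genes lay between 0.27 and 1.02. The groups did not overlap for 84 of the 85, where 45.0% of all genes tested lay wholly above. No member was lower by DESeq2 or at an unadjusted p under 0.05 either. Only RpL36 reached 2-fold, a size that 50.8% of all genes tested passed in either direction. In whole embryos, fewer cells of a type and less RNA per cell cannot be told apart, and CPM gives a share of the library and not an amount per embryo.

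RpL36, of the large subunit, had 388, 307 and 292 CPM in WT at cycle 14, against 143, 194 and 148 CPM before cycle 9. Its log2 fold change was 1.02 ± 0.14 (SE; edgeR's quasi-likelihood test, adjusted p = 5.3e-06). RpS15Ab (0.99), RpL34b (0.93), RpL35A (0.90) and RpS28b (0.90) followed it. At the other end stood RpL38, with 319, 267 and 262 CPM at cycle 14, against 222, 239 and 241 CPM before cycle 9, a log2 fold change of 0.27 ± 0.08. RpL34a (0.29), RpL36A (0.30), RpS27A (0.45) and RpLP0 (0.45) were the next smallest. RpL36A was the only member whose WT groups overlapped between the stages, with 85.2, 73.2 and 68.8 CPM at cycle 14 against 49.6, 71.2 and 61.9 CPM before cycle 9. Its call (adjusted p = 0.048) was lost in 13 of the 18 fits that each left out 1 library. RpL34a lost its call without WT cycle 14 replicate 1 or WT before cycle 9 replicate 1.

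Within the family, genes of both subunits rose in WT: 51 of 51 large subunit genes with a median log2 fold change of 0.74, and 34 of 34 small subunit genes with a median of 0.77. The difference between the subunits was not tested. The same comparison of stages within each knockdown gave log2 ratios of means with a median of 0.59 for E(z)-KD and 0.49 for CBP-KD, against 0.76 in WT. At cycle 14, 84 of the 85 genes lay wholly above their own libraries from before cycle 9 for E(z)-KD and 83 for CBP-KD, where 48.2% of all genes tested did for E(z)-KD and 45.8% for CBP-KD. RpL36A had the smallest ratio in both knockdowns, 0.22 for E(z)-KD and −0.02 for CBP-KD.

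**Figure D1:**
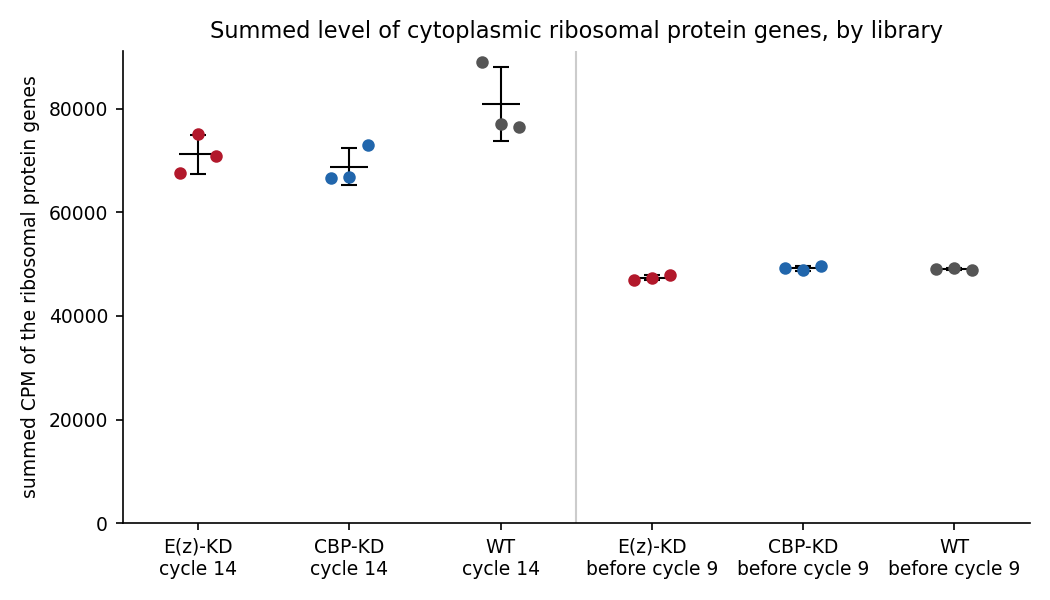
Sum over the 92 ribosomal protein genes in each library, in CPM (vertical axis, from 0), for E(z)-KD, CBP-KD and WT at cycle 14 (left) and before cycle 9 (right); points are libraries, the line is the mean and the bar is 1 SD. All 9 cycle 14 libraries lie above all 9 earlier ones, and WT replicate 1 stands above its replicates at 89081 CPM.

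The plot of summed levels gives the family as a whole. At cycle 14 the 92 genes together had 67639, 75055 and 70850 CPM in E(z)-KD and 66701, 66737 and 73010 CPM in CBP-KD, against 89081, 77133 and 76484 CPM in WT. All knockdown sums lay below all WT sums, but the lowest WT library was close to the highest E(z)-KD library. Before cycle 9 the sums were 46975, 47335 and 47876 CPM in E(z)-KD and 49177, 48773 and 49645 CPM in CBP-KD, against 49022, 49269 and 48819 CPM in WT. There E(z)-KD lay below WT in every library and CBP-KD overlapped it.

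The cycle 14 libraries of a group differed among themselves by a shift that nearly the whole family shared. In WT replicate 1, 82 of the 85 genes lay above the mean of the other replicates on the log2 scale. The median difference from that mean over the 85 was 0.25. Likewise, 82 genes lay above the mean of the other replicates in E(z)-KD replicate 2 (median 0.14) and 83 in CBP-KD replicate 3 (median 0.15). Genes of other families with short exons (under 1500 bases in all, 2498 genes) were shifted in these libraries too, by medians of 0.11 in WT replicate 1, 0.09 in E(z)-KD replicate 2 and 0.04 in CBP-KD replicate 3. The median coefficient of variation of a member was 6.25% in E(z)-KD, 6.28% in CBP-KD and 10.6% in WT at cycle 14, and 3.05% in E(z)-KD, 2.78% in CBP-KD and 5.40% in WT before cycle 9. The genes are therefore not independent readings. Without WT cycle 14 replicate 1, 83 members were higher in the WT stage comparison, with a median log2 fold change of 0.65. The counts of members that passed against WT at cycle 14, and their medians, are given with and without that library. Counts of groups that do not overlap, shares within pairs, other gene lists and the plots include it, as do values of single genes unless stated.

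Levels of different genes were compared per kilobase of annotated exon. In WT before cycle 9 RpL41, the shortest ribosomal protein, stood highest at 4023 ± 30.2 CPM per kb (SD, n = 3). RpS27A, a fusion of ubiquitin and a small subunit protein, had 1321 ± 23.1 and RpLP1, a stalk protein, had 1289.5 ± 16.2 CPM per kb. RpL4 followed with 1164 ± 89.7 and RpL27A with 1094 ± 36.3 CPM per kb. The libraries of RpS27A and RpLP1 overlapped, as did those of RpL4 and RpL27A, whereas RpL41 stood apart. The lowest levels above the floor in WT before cycle 9 were 87.1 ± 13.9 CPM per kb for RpS21, 83.7 ± 11.4 for RpL24-like, 36.9 ± 1.99 for RpL7-like, 30.0 ± 3.70 for RpS15Ab and 11.3 ± 1.41 for RpLP0-like, of which RpS21 and RpL24-like did not differ beyond their spread. The 3 genes named "-like" in this group are relatives of RpL24, RpL7 and RpLP0 whose counterparts in yeast act in assembly of the large subunit. The highest tested level was 355 times the lowest in WT before cycle 9, with a median of 577 CPM per kb, and 346 times the lowest in WT at cycle 14, with a median of 988 CPM per kb. Exon length was taken as the union of annotated exons, so a gene with a long, rarely used exon is placed too low in this order.

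Knockdown embryos were compared with WT at each stage, to ask how loss of either enzyme from the mother bore on these messages. Before cycle 9 few members changed in E(z)-KD: 5 were higher and 11 lower of 85, where 18.5% of all genes tested were higher and 15.5% lower. The median of the members was −0.07, beside −0.00 for all genes tested. In CBP-KD 3 were higher and 8 lower, where 24.1% of all genes tested were higher and 7.42% lower, with a median of 0.01 for the members and 0.09 for all genes tested. DESeq2 gave 4 higher and 16 lower in E(z)-KD, and library size scaling without TMM factors gave 2 higher and 20 lower in CBP-KD. The shares of all genes tested under these scalings are not given here. No member changed 2-fold before cycle 9, a size that 9.54% of all genes tested passed for E(z)-KD and 9.93% for CBP-KD. The 2 comparisons share the WT libraries.

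At cycle 14 the family lay lower in both knockdowns. In E(z)-KD 49 genes were lower and 2 higher of 85, with a median log2 fold change of −0.21, beside −0.03 for all genes tested. Of all genes tested, 31.5% were lower and 32.5% higher in E(z)-KD at that stage. In CBP-KD 65 genes were lower and none was higher, with a median of −0.26, beside 0.01 for all genes tested, of which 31.8% were lower and 35.4% higher. Of the 20 other members in CBP-KD, none was higher at an unadjusted p under 0.05, and DESeq2 called none higher either. The changes were small: only RpS15Ab in CBP-KD reached 2-fold, where 27.2% of all genes tested did so in CBP-KD and 24.3% in E(z)-KD. E(z)-KD lay wholly below WT for 37 members and CBP-KD for 65, where 34.5% of all genes tested did for E(z)-KD and 33.0% for CBP-KD. These 2 comparisons share the WT cycle 14 libraries.

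**Figure D2:**
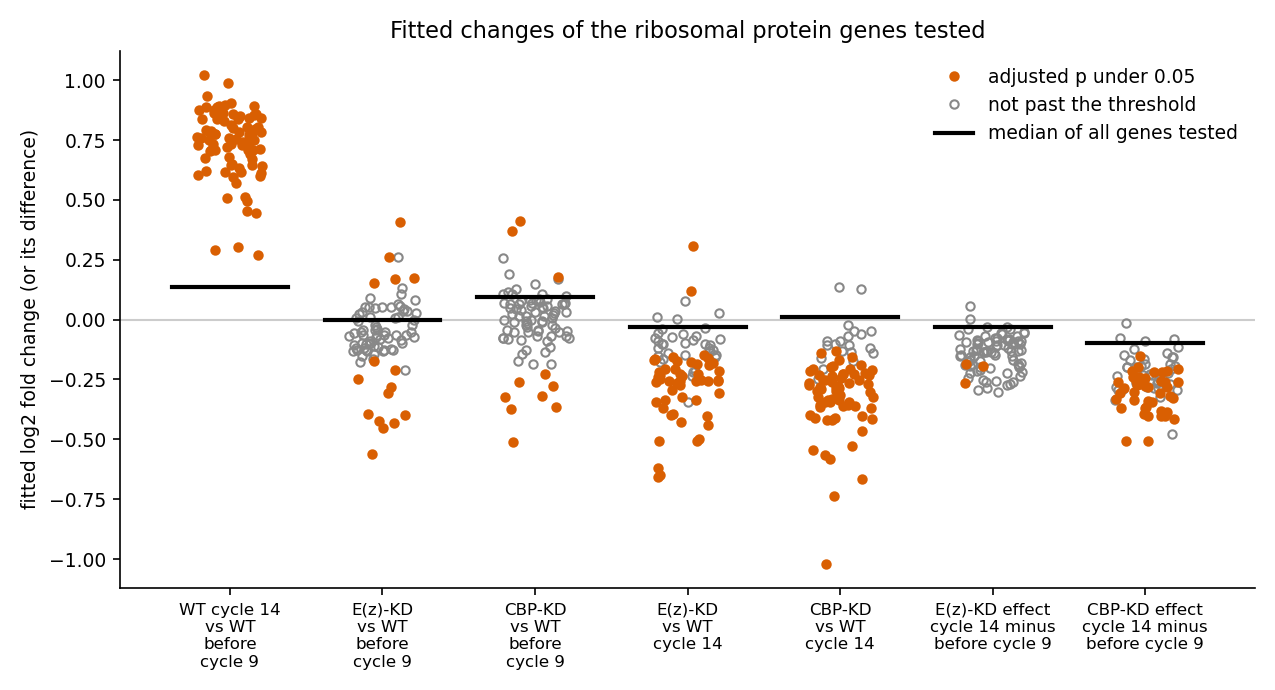
Fitted log2 fold change of each of the 85 ribosomal protein genes tested (vertical axis), in 5 comparisons and, in the right pair of columns, as the knockdown effect at cycle 14 minus its effect before cycle 9; filled points passed an adjusted p of 0.05 and bars are medians of all 8467 genes. The WT stage comparison lies wholly above 0, and at cycle 14 most points lie below the bar in each knockdown.

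Without WT cycle 14 replicate 1, the smallest library, the count of lower genes was 24 of 85 for E(z)-KD (median −0.11) and 48 for CBP-KD (median −0.17). In that fit 2397 of all 8467 genes tested were lower for E(z)-KD (median −0.02) and 2489 for CBP-KD (median 0.01). The members' count for E(z)-KD was thus close to the share over all genes tested. The lower count in E(z)-KD was also 24 without E(z)-KD cycle 14 replicate 1 and 31 without E(z)-KD cycle 14 replicate 3. DESeq2's scaling put the median of all genes tested at −0.21 for E(z)-KD and −0.16 for CBP-KD, and 81 members were lower for E(z)-KD and 83 for CBP-KD under it. The share of all genes tested that was lower under DESeq2 is not given here. Measured against the median of all genes tested, the members' median was −0.18 in E(z)-KD under either scaling, and −0.27 in CBP-KD under TMM and −0.28 under DESeq2. Short genes of other families had medians of −0.11 for E(z)-KD and −0.12 for CBP-KD at cycle 14, about midway between the family and all genes tested, and the part of gene length in the result was not tested.

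RpS13, a small subunit protein whose gene lies at 2L:8363477-8364662 (dm6, minus strand), was among the most reduced in every knockdown comparison. It had 350.2, 389 and 344 CPM in E(z)-KD and 316, 342 and 368 CPM in CBP-KD, against 637, 543 and 529 CPM in WT at cycle 14. Before cycle 9 it had 231, 237 and 256 CPM in E(z)-KD and 246, 257 and 262 CPM in CBP-KD, against 288, 361 and 342 CPM in WT. Every knockdown library lay below every WT library of its stage. The log2 fold changes at cycle 14 were −0.66 ± 0.09 for E(z)-KD (edgeR's quasi-likelihood test, adjusted p = 6.9e-06) and −0.74 ± 0.09 for CBP-KD (adjusted p = 1.7e-06). Before cycle 9 they were −0.45 for E(z)-KD and −0.37 for CBP-KD, and both passed.

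RpL27A, of the large subunit (2L:4457186-4458364, dm6, minus strand), gave a like picture. It had 743, 826 and 746 CPM in E(z)-KD and 721, 741 and 830.1 CPM in CBP-KD, against 1378, 1160.3 and 1098 CPM in WT at cycle 14. Before cycle 9 it had 438, 477 and 495 CPM in E(z)-KD and 529, 536 and 549 CPM in CBP-KD, against 708, 704 and 666 CPM in WT. No library of a knockdown reached its WT group at either stage. The log2 fold changes were −0.65 for E(z)-KD and −0.66 for CBP-KD at cycle 14, and −0.56 for E(z)-KD and −0.36 for CBP-KD before cycle 9, each with an SE of 0.08, and all passed.

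RpL37A and RpS29 also fell in all 4 knockdown comparisons. RpL37A, of the large subunit, had 428, 479 and 465 CPM in E(z)-KD and 402, 432 and 459 CPM in CBP-KD, against 761, 610.0 and 571 CPM in WT at cycle 14. Before cycle 9 RpL37A had 269.9, 279 and 291 CPM in E(z)-KD and 308, 295 and 307 CPM in CBP-KD, against 387, 355 and 393 CPM in WT, again with no overlap. Its log2 fold changes were −0.50 for E(z)-KD and −0.58 for CBP-KD at cycle 14, and −0.43 for E(z)-KD and −0.32 for CBP-KD before cycle 9. RpS29, of the small subunit, had 523, 594 and 515 CPM in E(z)-KD and 481, 528 and 578 CPM in CBP-KD, against 889, 709 and 721 CPM in WT at cycle 14. The earlier libraries had 344, 347 and 351 CPM in E(z)-KD and 379, 372 and 394 CPM in CBP-KD, against 469, 481 and 422 CPM in WT. Every knockdown library lay below WT at both stages, and the log2 fold changes were −0.51 for E(z)-KD and −0.55 for CBP-KD at cycle 14, and −0.40 for E(z)-KD and −0.26 for CBP-KD before cycle 9. The last of these lost its call without either of 2 WT or either of 2 CBP-KD libraries from before cycle 9.

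RpL41 passed in E(z)-KD at both stages and in CBP-KD at cycle 14. At cycle 14 it had 1464, 1658 and 1466 CPM in E(z)-KD and 1444, 1564 and 1717 CPM in CBP-KD, against 2586, 2050.1 and 1897 CPM in WT. At the earlier stage it had 927, 977 and 975 CPM in E(z)-KD and 1162, 1081 and 1181 CPM in CBP-KD, against 1296, 1288 and 1277 CPM in WT. The groups did not overlap in any of these 4 comparisons. The fold changes before cycle 9 were −0.42 for E(z)-KD (edgeR's quasi-likelihood test, adjusted p = 0.0015) and −0.17 for CBP-KD (adjusted p = 0.17). The difference between the CBP-KD effects at the 2 stages did not pass.

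**Figure D3:**
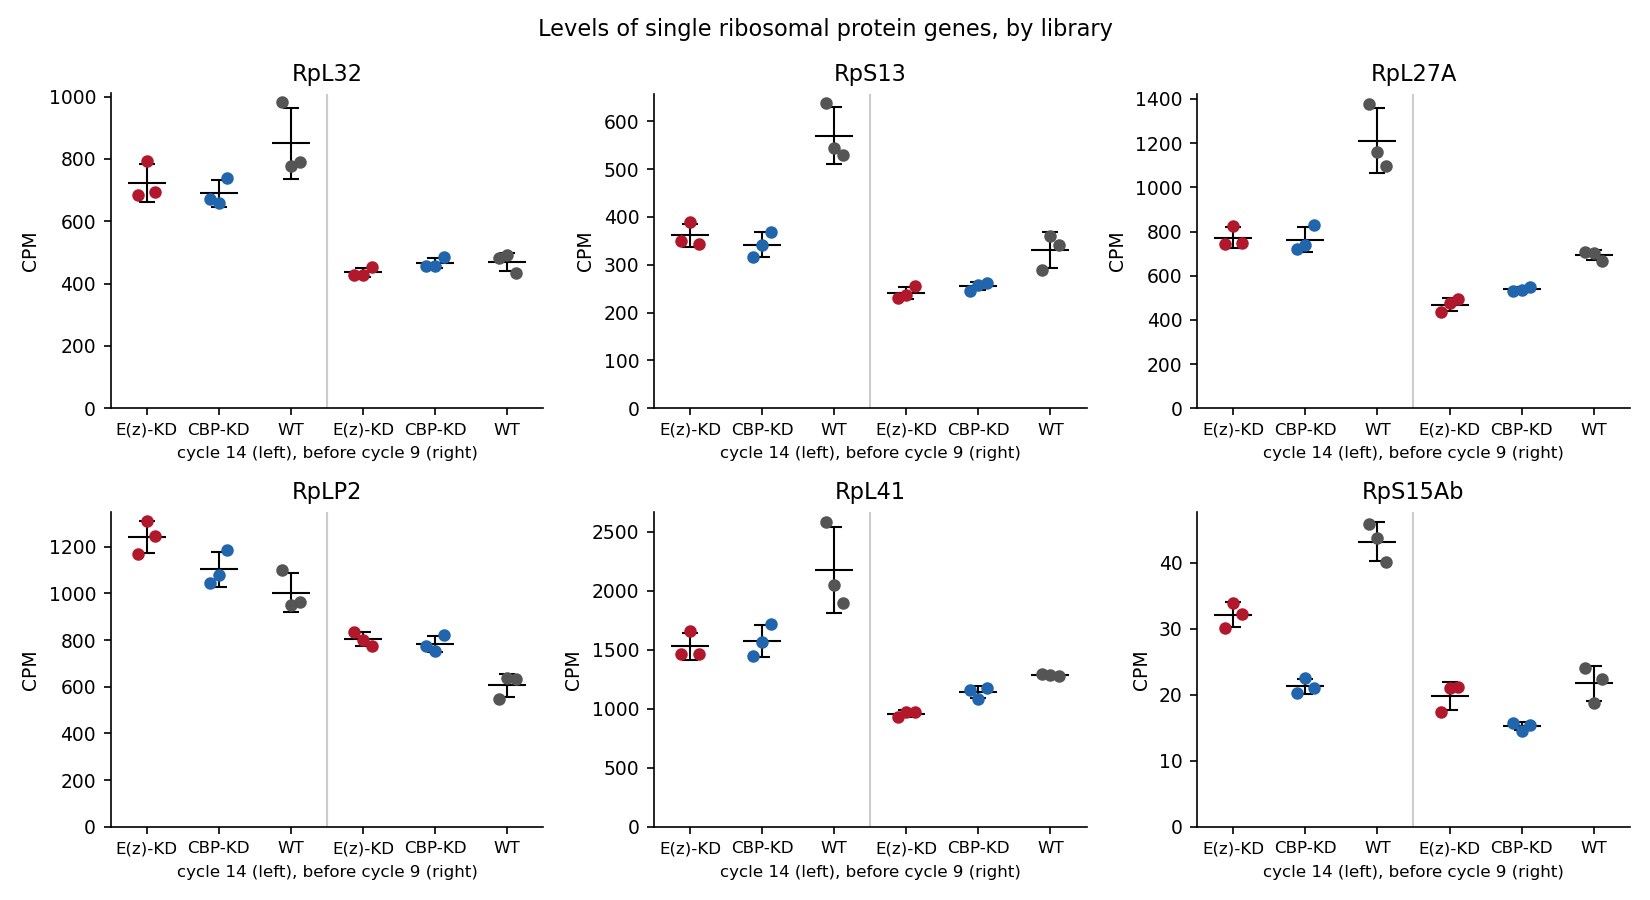
CPM of RpL32, RpS13, RpL27A, RpLP2, RpL41 and RpS15Ab in each library (vertical axes, each from 0), for E(z)-KD, CBP-KD and WT at cycle 14 (left of each panel) and before cycle 9 (right); points are libraries, lines are means and bars are 1 SD. RpS13 and RpL27A lie below WT in every knockdown library, and RpLP2 is the only panel where E(z)-KD lies above WT at both stages.

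The acidic stalk of the large subunit, which recruits translation factors, went the other way in part. RpLP2 had 1169.6, 1309 and 1244 CPM in E(z)-KD and 1045, 1078 and 1188 CPM in CBP-KD, against 1099, 949.6 and 963 CPM in WT at cycle 14. Before cycle 9 it had 835, 799.6 and 775 CPM in E(z)-KD and 775, 753 and 823 CPM in CBP-KD, against 548, 636 and 634 CPM in WT. Every E(z)-KD library lay above WT at both stages, and CBP-KD overlapped WT at cycle 14 only. The rises were 0.31 ± 0.07 in E(z)-KD at cycle 14, and 0.41 for E(z)-KD and 0.37 for CBP-KD before cycle 9, while CBP-KD at cycle 14 gave 0.14 (adjusted p = 0.10, edgeR's quasi-likelihood test). Under DESeq2 the E(z)-KD value at cycle 14 was 0.12 and did not pass.

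RpLP0, the base of the stalk, had 1475, 1544 and 1518 CPM in E(z)-KD and 1350.4, 1328 and 1443 CPM in CBP-KD, against 1418, 1399.9 and 1362 CPM in WT at cycle 14. E(z)-KD lay above WT by 0.12 ± 0.05 there, but DESeq2's scaling turned this to −0.07, so its direction depends on the scaling. Before cycle 9 RpLP0 was higher by 0.17 in E(z)-KD, and this call was lost without WT replicate 1 or E(z)-KD replicate 3 of that stage. RpLP1, the partner of RpLP2 in the stalk, did not follow it at cycle 14. There RpLP1 had 1466, 1714 and 1658 CPM in E(z)-KD and 1364, 1447 and 1557 CPM in CBP-KD, against 1971, 1454 and 1618 CPM in WT. Its fold change at cycle 14 was −0.06 in E(z)-KD, which did not pass, and −0.21 in CBP-KD (adjusted p = 0.045, edgeR's quasi-likelihood test). Before cycle 9 RpLP1 lay above WT in every library of both knockdowns, in the direction of RpLP2, but neither change passed.

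Other members higher before cycle 9 in E(z)-KD were RpS10b (0.26), RpL13A (0.17) and RpL22 (0.15), and in CBP-KD RpS14b (0.41) and RpL26 (0.18). RpS10b had 601, 649.8 and 677 CPM in E(z)-KD against 543, 535 and 531 CPM in WT, with no overlap. The call of RpL13A was lost in 5 of the fits without 1 library and under DESeq2, and that of RpL26 in 6 such fits and under DESeq2.

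RpL32, known in flies as rp49, is a usual reference gene for quantitative PCR and served as such in this study (3R:30045229-30046161, dm6, minus strand). It had 683, 793 and 693 CPM in E(z)-KD and 673, 658 and 738 CPM in CBP-KD, against 982, 778 and 790.2 CPM in WT at cycle 14. At the earlier stage it had 427, 428 and 452 CPM in E(z)-KD and 458, 456 and 485 CPM in CBP-KD, against 481, 490.3 and 435 CPM in WT. CBP-KD lay wholly below WT at cycle 14, E(z)-KD overlapped WT there, and each knockdown overlapped WT before cycle 9. In WT it was higher at cycle 14 by 0.86 ± 0.08 on the log2 scale (edgeR's quasi-likelihood test, adjusted p = 5.4e-08). Its log2 fold changes at cycle 14 were −0.23 for E(z)-KD (adjusted p = 0.023) and −0.30 for CBP-KD (adjusted p = 0.0046). The E(z)-KD call was lost without WT cycle 14 replicate 1 (−0.11, adjusted p = 0.17) and without E(z)-KD cycle 14 replicate 1 or 3. Before cycle 9 the values were −0.11 for E(z)-KD and −0.01 for CBP-KD, and neither passed. Taken alone, 3 against 3 libraries allow no 2-sided exact permutation p under 0.1, which RpL32 reached between the stages in WT and for CBP-KD at cycle 14, with 0.3 for E(z)-KD at cycle 14. Within the family its rise between the stages in WT was larger than that of 70 of the 85 genes, and its changes at cycle 14 lay near the family's medians.

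The knockdown effects before cycle 9 and at cycle 14 rest on separate libraries, which come from the same fly lines at both stages. They are set against each other here, and a repeated effect cannot be told apart from a lasting difference between the lines. In E(z)-KD 11 members were lower at both stages: RpL27A, RpL37A, RpL38, RpL41, RpL5, RpL7-like, RpS13, RpS15Aa, RpS29, RpS3A and RpS4. RpLP0 and RpLP2 were higher at both, and no member passed in opposite directions. In CBP-KD 8 members were lower at both stages: RpL27A, RpL37A, RpL7-like, RpS13, RpS15Aa, RpS15Ab, RpS29 and RpS5a. All 11 members lower in E(z)-KD before cycle 9 and all 8 lower in CBP-KD were thus lower again at cycle 14. Members that passed in the same direction at both stages made up 81.2% of the 16 that passed before cycle 9 and 25.5% of the 51 at cycle 14 in E(z)-KD, and 72.7% of 11 and 12.3% of 65 in CBP-KD. Of all genes tested that were lower before cycle 9, 53.4% for E(z)-KD and 60.8% for CBP-KD were lower again at cycle 14. Of those higher before cycle 9, 64.1% for E(z)-KD and 54.3% for CBP-KD were higher again. Of all genes tested that were lower at cycle 14, 26.2% for E(z)-KD and 14.2% for CBP-KD were also lower before cycle 9. The members' shares pool both directions, and their shares of the cycle 14 genes were no larger than these. Across the 85 genes the fitted changes at the stages had a Pearson's r of 0.89 for E(z)-KD and 0.84 for CBP-KD, beside 0.43 for E(z)-KD and 0.04 for CBP-KD over all 8467 genes, given as a description over genes that share libraries.

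**Figure D4:**
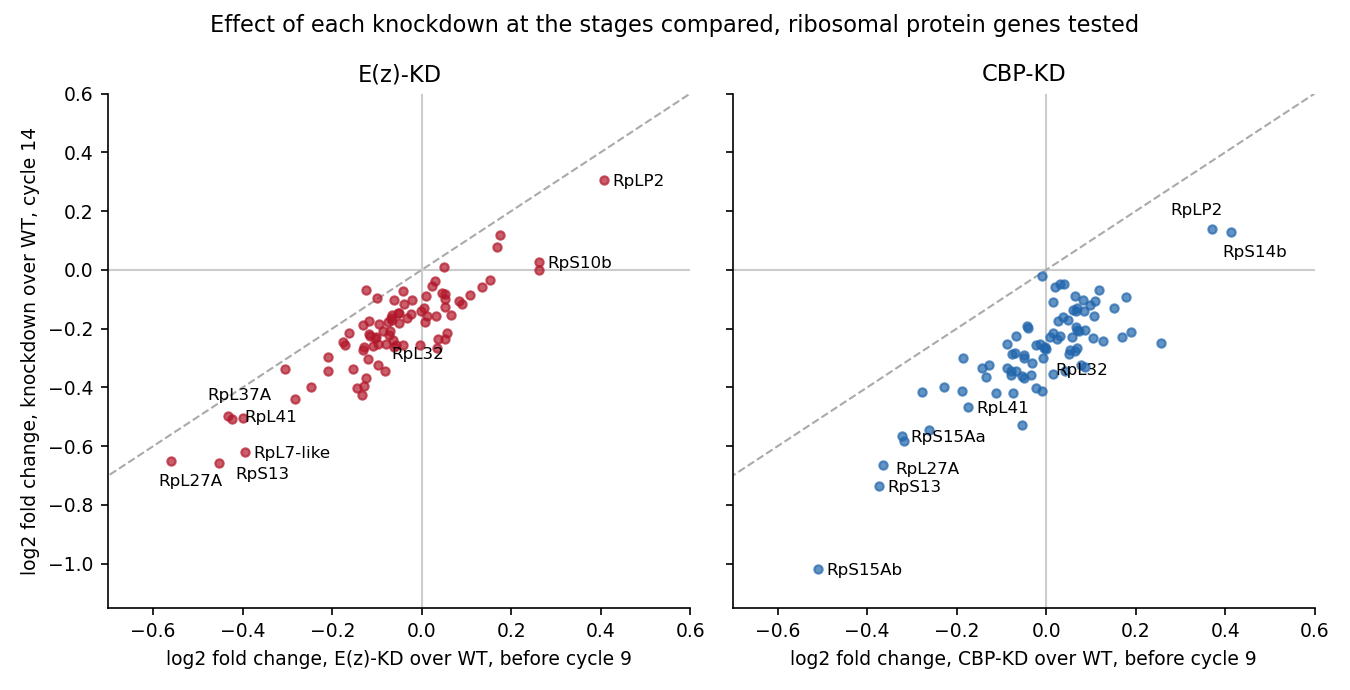
Fitted log2 fold change of knockdown over WT before cycle 9 (horizontal axis) and at cycle 14 (vertical axis), for the 85 ribosomal protein genes tested, with E(z)-KD left and CBP-KD right; the dashed line marks equal changes and selected genes are named. Nearly all points lie below the dashed line, and genes low at the earlier stage are low at the later one.

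A test of the difference between the stages asked whether the effect of each knockdown was the same at both. The E(z)-KD effect differed for 3 members, all lower at cycle 14, where 17.6% of all genes tested were lower in this sense and 23.4% higher. The CBP-KD effect differed for 43 members, all lower at cycle 14, where 26.5% of all genes tested were lower and 21.7% higher. The medians of the members were −0.14 for E(z)-KD and −0.26 for CBP-KD, beside −0.03 for E(z)-KD and −0.10 for CBP-KD over all genes tested. No member was higher at cycle 14 in this sense by edgeR, by DESeq2 or at an unadjusted p under 0.05. These counts moved with the processing: library size scaling gave 1 for E(z)-KD and 0 for CBP-KD, whereas DESeq2 gave 64 for E(z)-KD and 81 for CBP-KD. The shares of all genes tested under these scalings are not given here. The CBP-KD count was 19 without CBP-KD before cycle 9 replicate 3, WT cycle 14 replicate 1 or CBP-KD cycle 14 replicate 1, 23 without CBP-KD cycle 14 replicate 2 and 28 without WT before cycle 9 replicate 1. The E(z)-KD count was 0 without WT before cycle 9 replicate 1 or E(z)-KD cycle 14 replicate 1, 1 without E(z)-KD before cycle 9 replicate 3, WT cycle 14 replicate 1 or E(z)-KD cycle 14 replicate 3, and 8 without WT cycle 14 replicate 3.

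Several ribosomal proteins have duplicated genes, and their copies did not always change alike. The share of the less abundant copy was computed per kilobase of exon within each library, and counts of near-identical copies depend on how shared reads were divided. RpS15Aa and RpS15Ab encode the same small subunit protein family. RpS15Ab had 30.2, 33.9 and 32.3 CPM in E(z)-KD and 20.4, 22.5 and 21.1 CPM in CBP-KD, against 45.8, 43.8 and 40.1 CPM in WT at cycle 14. Before cycle 9 it had 17.3, 21.0 and 21.2 CPM in E(z)-KD and 15.7, 14.6 and 15.5 CPM in CBP-KD, against 24.0, 18.8 and 22.4 CPM in WT. CBP-KD lay wholly below WT at both stages, and E(z)-KD did so at cycle 14.

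RpS15Ab fell by 1.02 ± 0.10 on the log2 scale in CBP-KD at cycle 14, the largest change of any member in a knockdown (edgeR's quasi-likelihood test, adjusted p = 2.5e-07), and the CBP-KD effect was larger there than before cycle 9 (difference −0.51). The difference did not pass under library size scaling (−0.35). The abundant copy RpS15Aa had 631, 668 and 630.2 CPM in E(z)-KD and 548, 557 and 616 CPM in CBP-KD, against 973, 796 and 778 CPM in WT at cycle 14. It changed by −0.40 for E(z)-KD and −0.56 for CBP-KD at cycle 14, and by −0.25 for E(z)-KD and −0.32 for CBP-KD before cycle 9, and all 4 passed. RpS15Ab made up 6.12% of the pair for E(z)-KD and 4.63% for CBP-KD, against 6.26% in WT at cycle 14, and 5.92% for E(z)-KD and 4.85% for CBP-KD, against 5.49% in WT before cycle 9. Both genes have estimated counts that are not whole numbers, which marks reads shared between features.

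RpS14a and RpS14b lie beside each other on X, and both also have counts that are not whole. RpS14b had 183, 185 and 205 CPM in CBP-KD against 211, 164 and 151 CPM in WT at cycle 14, and 122, 124 and 129 CPM in CBP-KD against 92.2, 95.2 and 94.5 CPM in WT before cycle 9. It rose by 0.41 in CBP-KD before cycle 9 (adjusted p = 0.0054) and had a value of 0.13 at cycle 14, which did not pass. RpS14a had 587, 567 and 646 CPM in CBP-KD against 886, 762 and 761 CPM in WT at cycle 14, a log2 fold change of −0.42. The share of RpS14b in the pair was 31.8 ± 0.53% in CBP-KD against 24.2 ± 1.67% in WT at cycle 14, and 30.7 ± 1.00% in CBP-KD against 23.5 ± 0.96% in WT before cycle 9 (SD, n = 3). These shares did not overlap, while E(z)-KD, with 24.4% at cycle 14 and 24.8% before cycle 9, overlapped WT at both stages. How reads were divided between these copies is not known, so a difference in sequence between the fly strains cannot be told apart from a change in level.

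**Figure D5:**
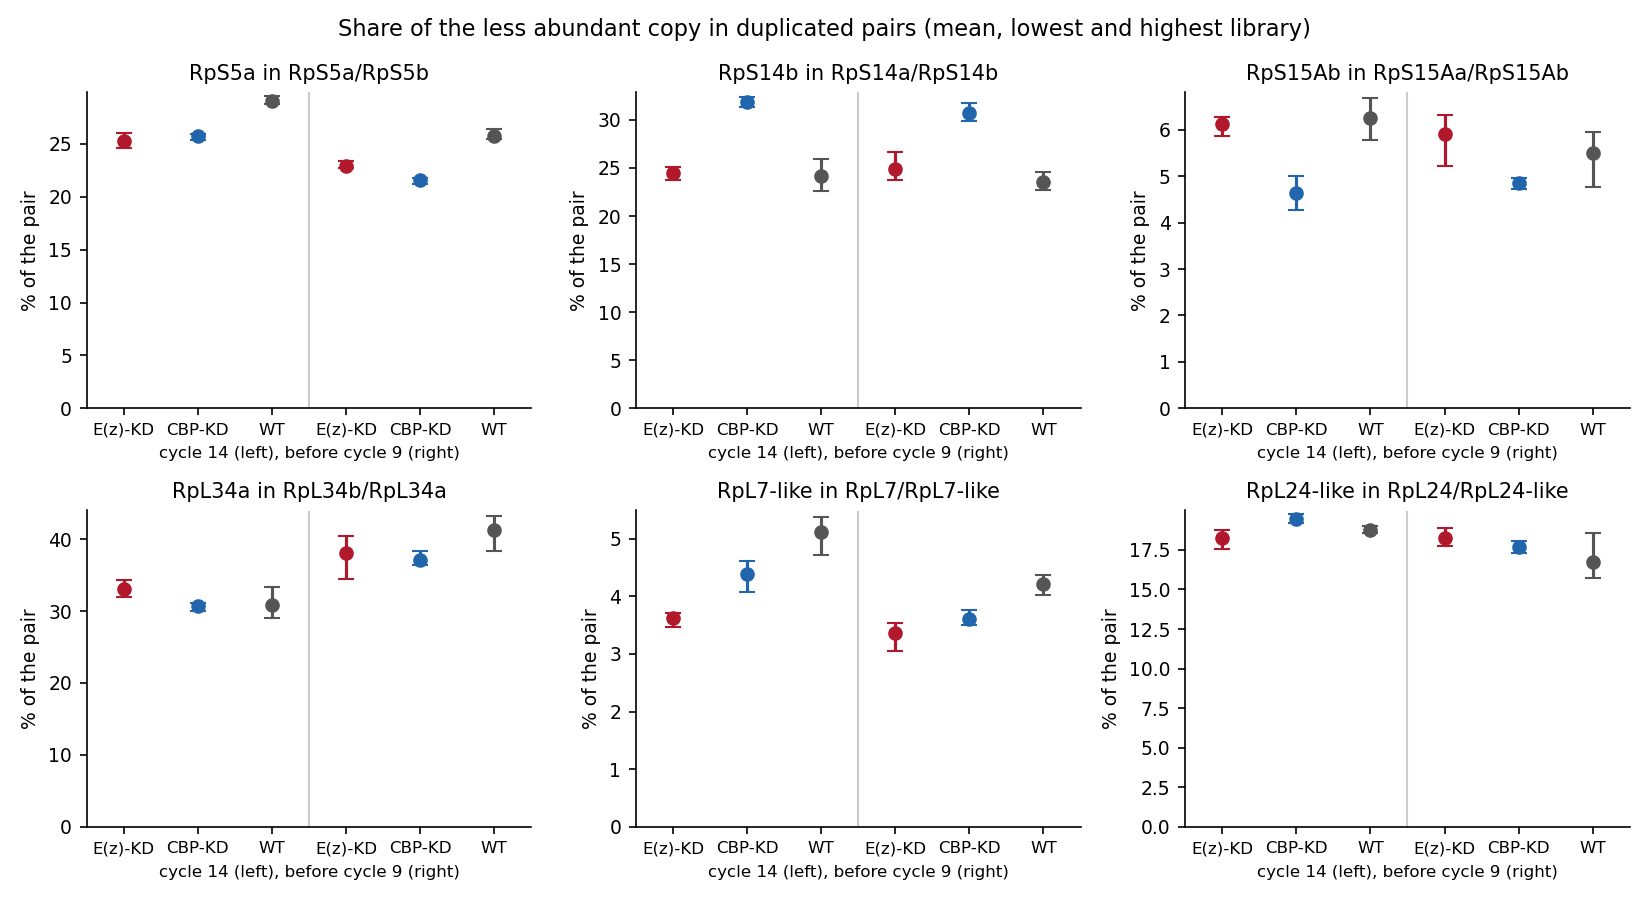
Share of the less abundant copy, in % of the pair per kilobase of exon (vertical axes, each from 0), for 6 pairs in E(z)-KD, CBP-KD and WT at cycle 14 (left of each panel) and before cycle 9 (right); points are means of 3 libraries and bars run from the lowest to the highest library. RpS14b takes a larger share in CBP-KD at both stages, and RpS5a a smaller share in both knockdowns than in WT.

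RpS5b, the copy known to be enriched in the ovary, was the more abundant of its pair. RpS5a had 381, 440.2 and 400.5 CPM in E(z)-KD and 412, 388 and 419 CPM in CBP-KD, against 590.1, 510.1 and 507 CPM in WT at cycle 14. RpS5b had 780.0, 857 and 842 CPM in E(z)-KD and 807, 763 and 845 CPM in CBP-KD, against 967, 867 and 856 CPM in WT. RpS5a lay wholly below WT in both knockdowns, whereas RpS5b overlapped WT in E(z)-KD. RpS5a changed by −0.39 for E(z)-KD and −0.40 for CBP-KD, and RpS5b by −0.12 for E(z)-KD (adjusted p = 0.093, edgeR's quasi-likelihood test) and −0.16 for CBP-KD (adjusted p = 0.029), the last call being lost without WT cycle 14 replicate 1. The share of RpS5a was 25.3 ± 0.73% for E(z)-KD and 25.7 ± 0.29% for CBP-KD, against 29.1 ± 0.39% in WT at cycle 14, and 23.0 ± 0.36% for E(z)-KD and 21.5 ± 0.28% for CBP-KD against 25.8 ± 0.57% in WT before cycle 9 (SD, n = 3). In WT the rise between the stages was 0.86 for RpS5a and 0.62 for RpS5b. RpS5a overlaps 14 annotated snoRNAs on its strand, more than any other member.

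RpL34a and RpL34b differed mainly by stage: RpL34a made up 30.8% of the pair in WT at cycle 14 against 41.2% before cycle 9. Its WT rise of 0.29 stood beside 0.93 for RpL34b. Of the assembly factor relatives, RpL7-like had 70.9, 83.5 and 80.4 CPM in E(z)-KD and 94.2, 79.6 and 96.8 CPM in CBP-KD, against 135, 118 and 108 CPM in WT at cycle 14. It was lower in all 4 knockdown comparisons, with −0.62 for E(z)-KD and −0.42 for CBP-KD at cycle 14, and −0.40 for E(z)-KD and −0.28 for CBP-KD before cycle 9. The last call was lost in 5 fits that each left out 1 library. Counts of RpL7-like were not whole in 55.6% of libraries, and the gene overlaps CG34164 on the same strand. The share of RpL7-like in its pair was 3.62% for E(z)-KD and 4.39% for CBP-KD, against 5.11% in WT at cycle 14. In any library RpL24-like made up at most 19.8% and RpLP0-like at most 1.97% of their pairs.

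The 7 members that could not be tested were near the floor in all libraries. The most counts in any library were 10 for RpS19b, 7 for RpS10a, 6 for RpL37b, 5 for RpL22-like, 3 each for RpL10Aa and RpS28-like, and 1 for RpS28a. Several of these copies are known from the testis or germ line. RpS19b passed 3 counts in 8 of the 18 libraries. RpL37a, whose name differs from RpL37A only by case, is a separate gene on X and was tested.

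The members were spread over the genome, with 23 on 3R, 21 on 2R, 19 on 2L, 14 on 3L, 14 on X and 1 on chromosome 4. Of the 14 on X, 11 were lower for E(z)-KD and 12 for CBP-KD at cycle 14, beside 38 and 53 of the 71 tested on autosomes. Of all genes tested, 31.5% were lower for E(z)-KD and 31.8% for CBP-KD there, and genes on X outside the family were not counted apart. The median WT rise between stages was 0.84 on X and 0.74 on autosomes. On the same strand, 28 members overlap annotated snoRNAs, 74 in all, and whether these lie in introns was not checked. At cycle 14, 15 of the 28 were lower for E(z)-KD and 19 for CBP-KD. By subunit, 31 of 51 large and 18 of 34 small subunit genes were lower in E(z)-KD at cycle 14, and 38 and 27 in CBP-KD, with medians between −0.18 and −0.26. Without WT cycle 14 replicate 1 the lower counts on X were 6 for E(z)-KD and 11 for CBP-KD, and on autosomes 18 for E(z)-KD and 37 for CBP-KD. Of all 8467 genes tested, 2397 were then lower for E(z)-KD and 2489 for CBP-KD. Of the 28 with snoRNAs, 9 were then lower for E(z)-KD and 14 for CBP-KD. For the large subunit 15 were lower for E(z)-KD and 29 for CBP-KD, and for the small subunit 9 for E(z)-KD and 19 for CBP-KD. None of these differences between groups of members was tested. Without the 6 members whose counts are not whole, 45 of 79 were lower for E(z)-KD and 61 for CBP-KD, and without the 27 tested members that overlap a gene on the other strand, 34 of 58 and 46 were. Members are short, with a median of 927 bases of exon beside 2143 for all genes tested.

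Other genes of translation were listed for comparison. Of all genes tested, 45.6% were higher and 41.4% lower between the stages in WT. At cycle 14 the share higher was 32.5% for E(z)-KD and 35.4% for CBP-KD, and the share lower was 31.5% for E(z)-KD and 31.8% for CBP-KD. The 9 elongation factors and related messages known to be translated with the ribosomal proteins rose in WT between the stages in 9 of 9 cases, with a median log2 fold change of 0.78. Tctp, a message of this kind, rose by 0.88, and its log2 fold changes at cycle 14 were −0.22 for E(z)-KD and −0.27 for CBP-KD, both past the threshold. In the knockdowns at cycle 14, 4 of these 9 were lower and 1 higher in E(z)-KD, and 4 lower and none higher in CBP-KD. The small subunit protein sta, not in the family by name, rose by 0.74 between the stages. Of the genes of mitochondrial ribosomal proteins, 35 of 73 fell between the stages in WT and 13 rose, where 41.4% of all genes tested were lower and 45.6% higher, with a median of −0.27 and mRpL38 lowest at −3.92. At cycle 14, 20 of the 73 were lower and 12 higher in E(z)-KD, and 27 lower and 12 higher in CBP-KD.

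Of the initiation factors, 15 of 23 were higher and 8 lower in WT at cycle 14, where 45.6% of all genes tested were higher and 41.4% lower. Of these 23, 8 were lower and 6 higher in E(z)-KD, and 11 lower and 4 higher in CBP-KD at that stage. Of all genes tested, 31.5% were lower and 32.5% higher in E(z)-KD there, and 31.8% lower and 35.4% higher in CBP-KD. Genes of ribosome biogenesis were lower in 17 of 30 cases and higher in 7 in E(z)-KD, and lower in 16 and higher in 5 in CBP-KD, where 31.5% of all genes tested were lower for E(z)-KD and 31.8% for CBP-KD. Ns3, a GTPase of the nucleostemin family, had log2 fold changes of −1.47 for E(z)-KD and −1.60 for CBP-KD. Of 8 genes of RNA polymerase I, which transcribes ribosomal RNA, 6 were lower and 1 higher in WT at cycle 14, and 2 rose and 2 fell in each knockdown there. Among those that rose was Tif-IA, an initiation factor of that polymerase, by 1.01 for E(z)-KD and 1.11 for CBP-KD.

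Of 14 genes named as regulators of ribosomal protein genes or of growth, Xrp1 changed in all 4 knockdown comparisons. It encodes a transcription factor known to be induced in flies that lack a copy of a ribosomal protein gene. It had 41.2 ± 4.8 CPM in E(z)-KD and 24.0 ± 1.8 CPM in CBP-KD, against 3.53 ± 0.51 CPM in WT at cycle 14 (SD, n = 3). At the earlier stage it had 51.4 ± 5.9 CPM in E(z)-KD and 30.5 ± 1.8 CPM in CBP-KD, against 2.24 ± 0.027 CPM in WT. The log2 fold changes were 3.52 for E(z)-KD and 2.74 for CBP-KD at cycle 14, and 4.52 for E(z)-KD and 3.76 for CBP-KD before cycle 9, and all passed. Whether this moved with the knockdown or with a difference between the fly lines cannot be told apart here. Thor, the binding protein of the cap-binding factor eIF4E, rose by 4.20 in E(z)-KD at cycle 14, and S6k, the kinase of RpS6, fell, with −1.35 for E(z)-KD and −2.02 for CBP-KD. RpS6 itself changed by −0.15 for E(z)-KD and −0.13 for CBP-KD. Of 5 host genes of snoRNAs that encode no protein, 5 rose in WT between the stages, 5 fell in E(z)-KD before cycle 9 and 5 at cycle 14. Of all genes tested, 45.6% rose in WT, and 15.5% fell in E(z)-KD before cycle 9 and 31.5% at cycle 14. Uhg5 fell most among the 5 hosts at cycle 14, with −2.16 for E(z)-KD and −2.31 for CBP-KD. Without WT cycle 14 replicate 1, 5 of the 5 were lower in E(z)-KD at cycle 14 and 4 in CBP-KD. In the same fit 2397 of all 8467 genes tested were lower for E(z)-KD and 2489 for CBP-KD.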

How the data were processed

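Whole-embryo RNA was depleted of ribosomal RNA and sequenced from strand-specific libraries. Per the study's methods, reads were aligned to dm6 with STAR, keeping reads that map to several places; the counting tool and its annotation are not given in the sources used here. The authors deposited estimated counts per gene name, of which 2.90% were not whole (tolerance 0.01). They were rounded to whole numbers, although raw counts had been assumed when the test was chosen. The ERCC spike-in was not used here.

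Groups came from the sample titles. Genes passing edgeR's filter (8467 of 16680) were fitted in edgeR 4.0.16 (R 4.3.3) with TMM factors, a mean for each of the 6 groups over all 18 libraries and the quasi-likelihood test (12 residual degrees of freedom, common biological coefficient of variation 0.115). P-values were Benjamini-Hochberg adjusted over all genes tested, and a gene passed at 0.05. SE is the log2 fold change divided by the root of F. CPM used TMM library sizes. The fit was tested on simulated counts. Alternatives were DESeq2 1.42.0, library size scaling, TMM factors computed without the family, other filters, the compared groups alone, a 2-fold threshold, a replicate block and leaving out each library. Sampling intervals and floors cover counting error only.

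Positions, exon lengths, snoRNAs and overlaps came from Ensembl 115 for the dm6 assembly. Of the names in the table, 12504 were current symbols, 3993 older names and 183 unmatched; 90 members matched by current symbol and 2 by an older name, RpL37a by elimination. Promoter and protein sequences were not analysed here. The members, the gene lists and the tests were chosen with earlier results of these data known. Genes named were RpL32, duplicated copies, the 5 largest and 5 smallest changes among members that passed in each of 7 comparisons, the 5 highest and 5 lowest levels per kb in WT before cycle 9, untested members, and at most 3 genes of each other list. The genes lower or higher at both stages were added to show an overlap, and RpLP1 as partner of RpLP2, after their values were seen. A result for a withheld item is not reported here.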

Additional observations from a re-analysis of the deposited data

Results flagged for a closer look

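In E(z)-KD, the change from WT was not the same at both stages for 3 ribosomal protein genes (edgeR's quasi-likelihood test of the difference), among them RpS5a (−0.27 on the log2 scale, effect at cycle 14 minus effect before cycle 9) and RpL22 (−0.19). All 3 were lower at cycle 14 in this sense, where 17.6% of all genes tested were lower and 23.4% higher. RpL22, of the large subunit, had 1145, 1198 and 1216 CPM in E(z)-KD against 1215, 1238 and 1189 CPM in WT at cycle 14, and 813, 819 and 795 CPM in E(z)-KD against 702, 753 and 729.7 CPM in WT before cycle 9. Its counts were not whole in 100% of libraries, and the gene overlaps lncRNA:CR42491 on the same strand.

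In CBP-KD the effect likewise differed between the stages for 43 genes, with the largest differences in RpS15Ab (−0.51), RpL23 (−0.51), RpL35A (−0.42), RpL39 (−0.40) and RpS30 (−0.40). All 43 were lower at cycle 14 in this sense, where 26.5% of all genes tested were lower and 21.7% higher. Library size scaling gave 0 such members, and some fits that left out 1 library gave 19. RpL23, of the large subunit, had 411, 462 and 487 CPM in CBP-KD against 583, 531 and 502 CPM in WT at cycle 14, and 329.9, 340.4 and 372 CPM in CBP-KD against 217, 341 and 314 CPM in WT before cycle 9. Its WT libraries from before cycle 9 spread widely, and without WT before cycle 9 replicate 1 the difference was −0.33.

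Counts of 4 members that were too low to test exceeded 3 in some knockdown library: at most 10 for RpS19b, 7 for RpS10a, 6 for RpL37b and 5 for RpL22-like. Raw counts summed over the 12 knockdown libraries were 52 for RpS19b, 35 for RpS10a, 25 for RpL37b and 20 for RpL22-like. Over the 6 WT libraries they were 8, 1, 5 and 1. These 4 genes were picked by their knockdown counts and the sums are not scaled for depth, so they do not compare the groups. The other untested members had 3 against 3 (RpL10Aa), 4 against 0 (RpS28-like) and 1 against 1 (RpS28a), and none was tested.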

How the results depend on the processing

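With a 2-fold threshold added, the counts became 1 higher in the WT stage comparison, 0 in either direction for both knockdowns before cycle 9 and for E(z)-KD at cycle 14, 1 lower for CBP-KD at cycle 14, and 0 for both differences between stages. Under DESeq2, E(z)-KD at cycle 14 had 0 higher and 81 lower, and the differences between stages had 64 lower for E(z)-KD and 81 for CBP-KD; the median of the family was 1.01 between WT stages, −0.39 for E(z)-KD and −0.44 for CBP-KD at cycle 14, and −0.29 and −0.39 for the differences, while the medians of all genes tested were 0.39, −0.21, −0.16, −0.18 and −0.23. Library size scaling gave 20 lower in CBP-KD before cycle 9 (median −0.10), 1 higher in CBP-KD at cycle 14, and differences of 1 for E(z)-KD and 0 for CBP-KD (median −0.11). Without a filter on low counts there were 3 higher in E(z)-KD before cycle 9, 31 lower in E(z)-KD at cycle 14, and 0 and 19 differences for E(z)-KD and CBP-KD. With at least 10 counts in every library, E(z)-KD at cycle 14 had 1 higher, the E(z)-KD difference 10 lower and the WT median was 0.92. With the compared groups alone, E(z)-KD before cycle 9 had 8 higher, CBP-KD before cycle 9 had 24 lower, E(z)-KD at cycle 14 had 1 higher and 28 lower, the E(z)-KD difference had 1 and the WT median was 0.91. Leaving out 1 library gave 83–85 higher and 0–0 lower between WT stages, 3–5 and 10–12 in E(z)-KD and 2–5 and 6–11 in CBP-KD before cycle 9, 1–3 and 24–53 in E(z)-KD and 0–2 and 48–72 in CBP-KD at cycle 14, and 0–8 and 19–58 lower for the E(z)-KD and CBP-KD differences. The higher counts were 3 in E(z)-KD before cycle 9 without WT replicate 1 or E(z)-KD replicate 3 of that stage, 5 in CBP-KD before cycle 9 and 2 in CBP-KD at cycle 14 without WT cycle 14 replicate 1, and 1 in E(z)-KD at cycle 14 without WT cycle 14 replicate 2 or 3 or E(z)-KD cycle 14 replicate 3. The direction turned for RpLP0 in E(z)-KD at cycle 14 under DESeq2 (−0.066) and for the CBP-KD difference of RpL22 under library size scaling (0.0042, against −0.15). The cause was not tested. Shares of all genes tested are not given beside the counts in this section. Of values for named members, 1852 stayed past the threshold and 182 did not when 1 library was left out. Replicate numbers share only a number: no pair of groups had a correlation over 0.1 for all 3 numbers, and with the replicate block the counts were 84 higher and 0 lower between WT stages, 4 and 11 in E(z)-KD and 3 and 8 in CBP-KD before cycle 9, 2 and 47 in E(z)-KD and 0 and 63 in CBP-KD at cycle 14, with 2 and 35 lower for the differences.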
